A study of Salmo salar with 26 samples.

Results

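Ion and water transport was represented by 54 of the 26681 unigenes measured in the lenses of Atlantic salmon (Salmo salar). A unigene is a transcript contig assembled without a genome. A unigene was taken when the description of its best protein hit named a sodium/potassium-transporting ATPase (Na/K-ATPase, 11 unigenes), an aquaporin (3), a chloride channel (2), a potassium channel (11), a sodium channel (2), a sodium/hydrogen exchanger (2), a bicarbonate transporter (3), a V-type proton ATPase (16) or a carbonic anhydrase (4). Only 13784 unigenes had a hit, and unigenes without one could not be taken. The study sequenced poly(A) RNA from 26 lenses in 4 groups. These were diploid fish with cataract (2N+, n = 6), diploid fish without cataract (2N-, n = 6), triploid fish with cataract (3N+, n = 8) and triploid fish without cataract (3N-, n = 6). The 26 fish were all different animals, and they were sorted by ploidy with no other treatment according to the labels. Body weight was not matched between the groups, at 595.8 ± 157.7 g in 2N+ and 256.7 ± 80.6 g in 2N- fish, and at 605.6 ± 221.4 g in 3N+ and 510.0 ± 162.1 g in 3N- fish (SD). The diploid weights did not overlap, at 460 to 840 g in 2N+ and 110 to 345 g in 2N- fish. A fit with body weight as a covariate therefore cannot separate weight from cataract in diploid lenses, or in averages that include them.

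The lens has no blood vessels, and its fibre cells have lost their organelles. Clarity depends on a low sodium content and a controlled water content, which are set by sodium pumps concentrated in the surface epithelium, by potassium and chloride channels, and by water channels in the fibre membranes. Disturbed sodium and water balance is a classical feature of cataract. Carbonic anhydrases, bicarbonate transporters, sodium/hydrogen exchangers and proton ATPases handle acid in the cytoplasm and in intracellular compartments.

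Levels are reads scaled to unigene length and library size (RPKM) as deposited, so unigenes of different length can be compared. The libraries held between 9.76 and 11.95 M reads, and the median unigene had 14 reads in a lens. Of the 54 members, 38 had at least 10 reads in at least 6 lenses and were tested. The other 16 did not reach this, some because most of their reads lay in a few lenses. All changes below are log2 differences of RPKM divided by a library scaling factor (TMM) plus 0.5. They were tested in 1 limma model over 19532 unigenes with Benjamini-Hochberg adjustment. The tissue label fitted the abundance of lens fibre transcripts. The 20 unigenes of the lens fibre marker list summed to between 6599 and 10020 RPKM in every lens. The 3 leukocyte unigenes summed to at most 2.91 RPKM, but 0 of them had enough reads to be tested, so this sum does not measure leukocyte content. The 4 unigenes of the erythrocyte list were uneven, with sums of 16.6 to 1374 RPKM in 2N+ and 4.78 to 95.7 RPKM in 2N- lenses. Their sums ran from 7.89 to 691.3 RPKM in 3N+ and from 6.97 to 2028 RPKM in 3N- lenses. The part of blood in the member levels was not tested.

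The groups allow cataract to be compared with clear lenses within each ploidy, and triploid with diploid lenses at each cataract status. No member passed an adjusted p of 0.05 in either cataract comparison. In 2N+ against 2N- lenses 0 of 38 were called by limma, against 1.37% of all unigenes tested, and 4 members had an unadjusted p below 0.05, against 12.5% of all unigenes. In 3N+ against 3N- lenses 0 of 38 were called, against 0.087% of all unigenes, and 3 had an unadjusted p below 0.05, against 8.94%. For cataract averaged over both ploidies 0 of 38 were called, against 2.68%, and 2 had an unadjusted p below 0.05, against 14.5%. The voom test on recovered reads called 0, 0 and 1 members in these comparisons, against 1.82%, 0.0512% and 2.79% of all unigenes. The median log2 change of the 38 members was 0.12 in diploid and -0.10 in triploid lenses, and over all unigenes it was 0.02 and -0.01. Without the scaling factors, which averaged 1.16 in 2N+ and 0.944 in 2N- lenses, the diploid median was 0.39 for the members and 0.28 for all unigenes, and 3 members were called, against 6.73% of all unigenes. The V-type proton ATPase subunits held the members nearest to a call in the diploid and average comparisons. In 3N+ against 3N- lenses the potassium channel Unigene17213 had the smallest limma p of a member (adjusted p = 0.477).

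**Figure D1:**
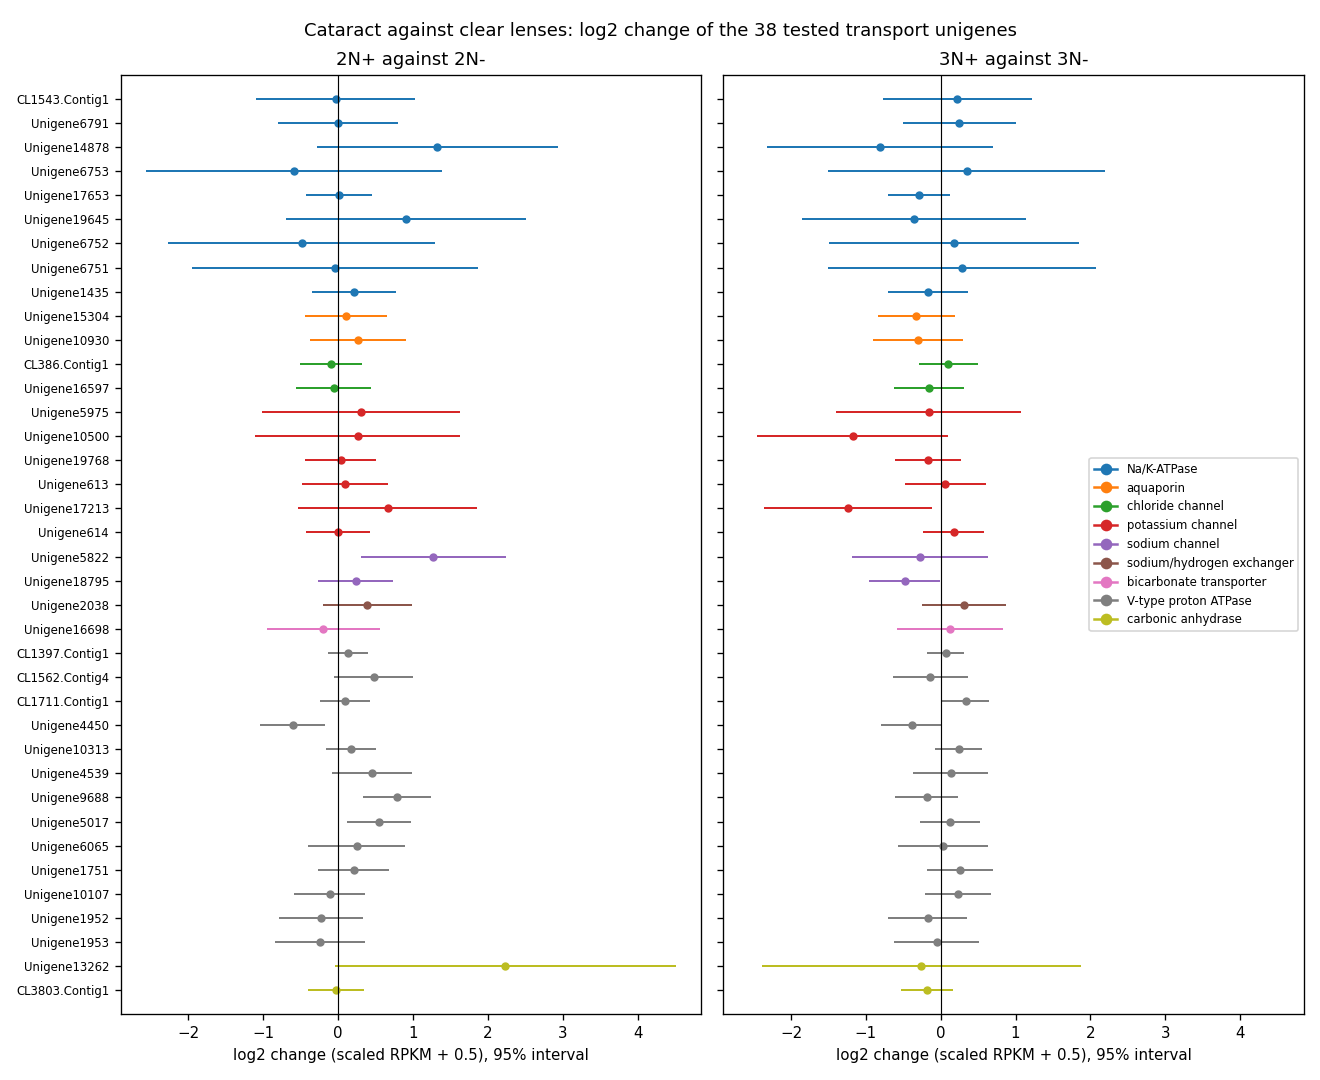
Log2 change of each of the 38 tested transport unigenes (rows, coloured by class) in 2N+ against 2N- lenses (left) and in 3N+ against 3N- lenses (right), as fitted by limma with its unadjusted 95% interval. The widest intervals in both panels belong to carbonic anhydrase Unigene13262, the 3 shorter Na/K-ATPase beta contigs, the tested alpha 3 contigs Unigene14878 and Unigene19645, and the potassium channels Unigene10500, Unigene5975 and Unigene17213, and 0 members pass the adjusted threshold in either panel.

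The Na/K-ATPase, which exports sodium and imports potassium at the cost of ATP, had the highest class sum, at 109.6 ± 84.4 RPKM over the 26 lenses (SD). Every sum in this text adds the RPKM of separate contigs, so a transcript assembled in several contigs counts several times. Class sums, their order and shares of them therefore depend on the assembly. The catalytic alpha subunit of the pump was mostly isoform 1c (CL1543.Contig1, 3439 bases, hit in rainbow trout). It made up 43.4% of the class sum and ranked 805 of 26681 unigenes by mean level. Alpha 1c had a lowest, median and highest level of 15.6, 66.7 and 113.9 RPKM in 2N+ lenses, and of 12.0, 62.5 and 74.5 RPKM in 2N- lenses. It had 17.4, 33.4 and 87.3 RPKM in 3N+ lenses, and 13.3, 33.1 and 73.4 RPKM in 3N- lenses. Each of the 4 groups contained both low and high lenses, and the groups overlapped over most of their ranges. The log2 change was -0.03 (95% interval -1.08 to 1.02, adjusted p = 0.994) in diploid and 0.22 (-0.76 to 1.202, adjusted p = 0.960) in triploid cataract lenses.

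The beta subunit, which carries the alpha subunit to the membrane, was represented by 4 contigs. The longest, beta-233 (Unigene6791, 1120 bases), had a lowest, median and highest level of 7.99, 33.3 and 53.0 RPKM in 2N+ lenses, and of 8.04, 28.1 and 31.6 RPKM in 2N- lenses. The corresponding levels were 8.58, 16.7 and 40.6 RPKM in 3N+ lenses, and 7.21, 17.4 and 27.5 RPKM in 3N- lenses. As for alpha 1c, low and high lenses occurred in every group. Its log2 change was -0.01 (-0.80 to 0.78, adjusted p = 0.998) in diploid and 0.25 (-0.49 to 0.99, adjusted p = 0.930) in triploid cataract lenses. The alpha 1c to beta-233 ratio stayed between 1.28 and 2.66 in all 26 lenses, with a median of 2.01, although each of them varied several-fold. The shorter beta contigs Unigene6751, Unigene6752 and Unigene6753 reached 11.4, 14.2 and 13.6 RPKM and were listed at 0 in 5, 3 and 3 lenses.

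**Figure D2:**
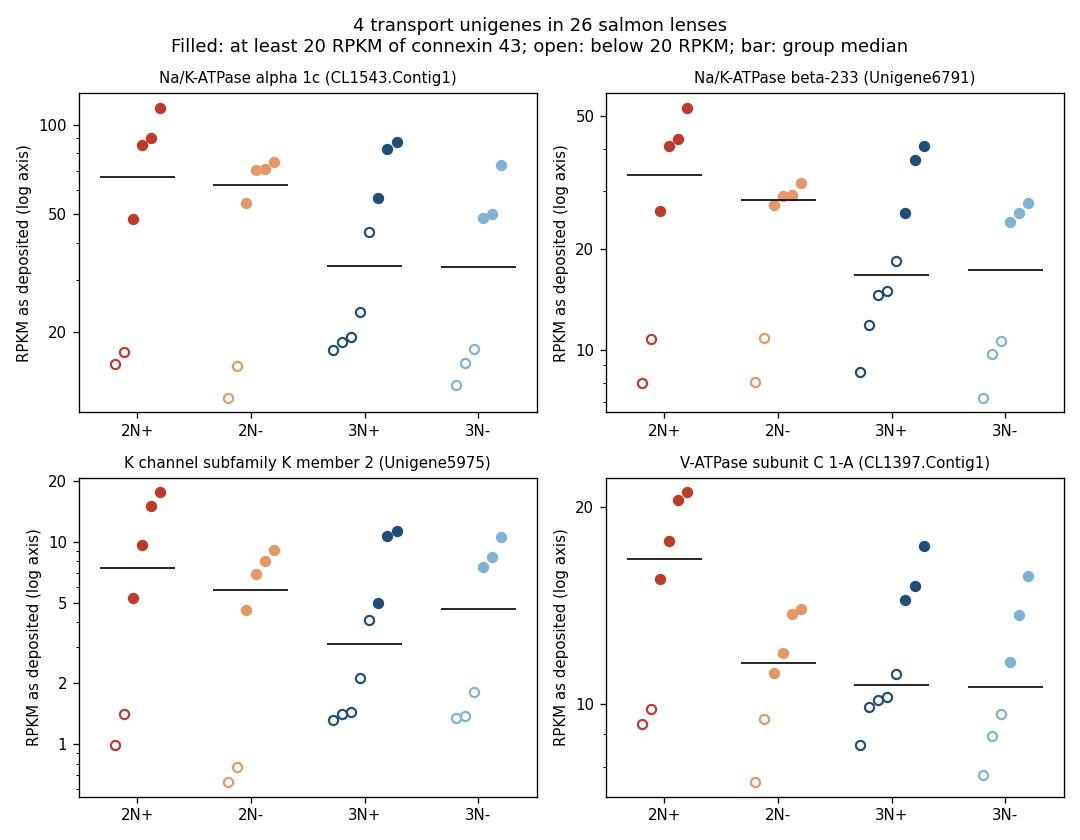
RPKM as deposited (log axis) of 4 transport unigenes in 2N+, 2N-, 3N+ and 3N- lenses, with 1 point per lens and a bar at the group median. Filled points are the 14 lenses with at least 20 RPKM of connexin 43 and open points the other 12, and the filled points lie above the open ones in each panel (for V-ATPase subunit C, CL1397.Contig1, the nearest are 11.15 and 11.12 RPKM).

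The lenses high in the pump were also high in connexin 43 (CL2590.Contig1), a gap junction protein of the lens epithelium, and they came from all 4 groups. In 14 lenses connexin 43 was between 23.7 and 109.5 RPKM, and in 12 it was between 0.42 and 7.89 RPKM. The connexin 43-rich lenses numbered 4 of 6 in 2N+, 4 of 6 in 2N-, 3 of 8 in 3N+ and 3 of 6 in 3N-. Alpha 1c had a lowest, median and highest level of 48.1, 72.2 and 113.9 RPKM in the rich lenses, against 12.0, 17.3 and 43.4 RPKM in the poor ones. Beta-233 had 24.1, 28.96 and 53.0 RPKM in the rich lenses, against 7.21, 10.7 and 18.5 RPKM in the poor ones. The ranges did not overlap for either subunit, and the highest poor lens was in both cases 3N+ replicate 1. Unigene6753 had a median of 9.66 RPKM in rich and 0.21 RPKM in poor lenses, and Unigene6751 a median of 5.02 RPKM in rich and 0.23 RPKM in poor lenses.

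Of the 38 tested members, 6 had every rich lens above every poor one and 0 had the reverse, against 4.26% of all unigenes with the rich lenses above. Besides these 4 pump contigs they were the potassium channel Unigene5975 and the V-ATPase subunit CL1397.Contig1. Unigene6791 and Unigene6753 share the hit beta-233, so the 6 unigenes may stand for fewer genes. The scaling factors also differed between these lenses, at 0.983 to 1.41 in rich and 0.708 to 0.981 in poor ones. On RPKM divided by those factors 2 of 38 members kept the complete separation (Unigene6791 and Unigene5975), against 2.37% of all unigenes. Scaled alpha 1c then ran from 42.5 to 82.3 RPKM in rich and from 15.6 to 45.9 RPKM in poor lenses, with 3N+ replicate 1 again the lens at the top of the poor range. The cut between rich and poor lenses was set after the levels were seen, so these are descriptions without a test. In whole lenses, fewer cells of a type and less RNA per cell cannot be told apart. The 6 unigenes of the lens epithelium marker list, which includes connexin 43, summed to 22.0 to 160.3 RPKM in 2N+, 22.5 to 109.4 RPKM in 2N-, 21.0 to 112.5 RPKM in 3N+ and 22.0 to 101.4 RPKM in 3N- lenses. Connexin 43 was at 0 in no lens. Of the other 5 unigenes of that list, the 4 Pax-6 contigs had higher medians in rich lenses (CL2473.Contig1, 8.63 RPKM in rich and 2.66 RPKM in poor ones), whereas the protocadherin-1-like Unigene4010 had a lower median, at 12.1 RPKM in rich and 13.5 RPKM in poor lenses. Without connexin 43 the list summed to 22.2 to 50.8 RPKM in rich and 18.96 to 27.7 RPKM in poor lenses, with overlap. The part of connexin 43 in the member levels was not tested beyond a fit with it as a covariate, in which 1 member (Unigene9688) was called in the diploid comparison, against 4.15% of all unigenes, 0 in the triploid one, against 0.65%, and 1 (Unigene4450) on average over ploidies, against 5.61%.

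**Figure D3:**
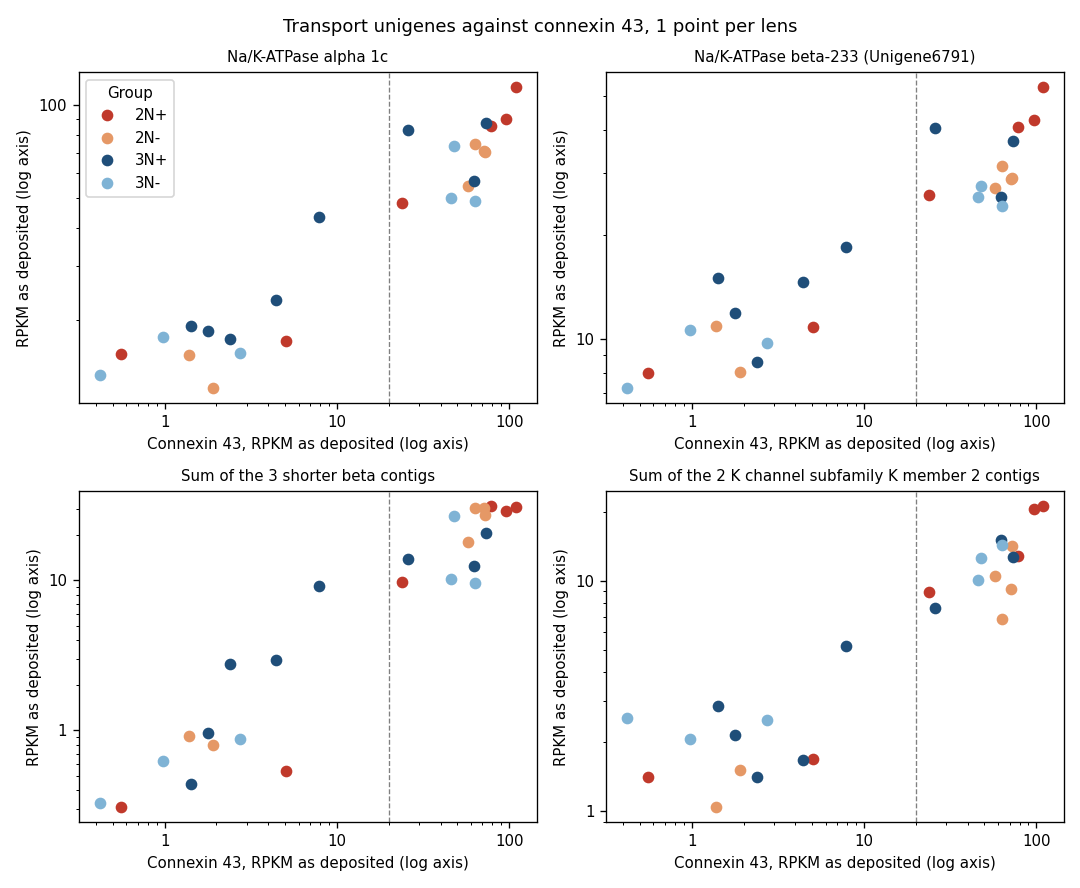
RPKM of 4 pump and channel measures against connexin 43 (both axes log), with 1 point per lens coloured by group and a dashed line at 20 RPKM. Lenses of all 4 groups lie on both sides of the line, and the lenses right of it are the higher ones for alpha 1c, beta-233 and the sums of the shorter beta contigs and of the subfamily K member 2 contigs.

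The other catalytic isoform, alpha 3, which is the isoform of neurons and photoreceptors in mammals, had 4 short contigs. Their summed level was 3.00, 8.78 and 165.4 RPKM (lowest, median, highest) in 2N+ lenses and 2.74, 4.61 and 15.3 RPKM in 2N- lenses. The sum was 1.95, 5.55 and 14.1 RPKM in 3N+ lenses, and 2.51, 5.57 and 146.4 RPKM in 3N- lenses. The high values came from 3 lenses, 2N+ replicates 2 and 3 and 3N- replicate 1, which were also those with the most rod opsin, at 2462, 555 and 1390 RPKM against at most 314 RPKM in the other 23. In these 3 lenses the best tested alpha 3 contig, Unigene14878, had 48.5, 19.9 and 42.7 RPKM, against 0.29 to 5.78 RPKM elsewhere. It had a log2 change of 1.33 (-0.27 to 2.92, adjusted p = 0.529) in diploid and -0.81 (-2.31 to 0.68, adjusted p = 0.857) in triploid cataract lenses. Without the 3 rod opsin-rich lenses these values were 0.18 and -0.15. Over 13 alternatives the diploid value of Unigene14878 ran from 0.18 to 2.06 and the triploid one from -1.47 to -0.14. Leaving out 1 lens gave 0.73 (without 2N+ replicate 2) to 1.72 in diploid and -1.09 to -0.15 (without 3N- replicate 1) in triploid lenses.

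Carbonic anhydrase, which interconverts carbon dioxide and bicarbonate, had the same high lenses. Unigene13262 (1535 bases) held 64.8% of the summed level of the class. It had 75.5, 37.2 and 58.5 RPKM in 2N+ replicates 2 and 3 and 3N- replicate 1, and at most 8.00 RPKM in the other 23 lenses, with 1 lens at 0. Among those 23 the highest were 3N- replicate 5 and 2N+ replicate 1, at 8.00 and 6.43 RPKM. They also had the highest sums of the erythrocyte list, at 2028 and 1374 RPKM. The next, 2N- replicate 6 at 4.43 RPKM, had an erythrocyte sum of only 13.5 RPKM. The part of blood in this level was not tested. For Unigene13262 the log2 change was 2.24 (-0.03 to 4.50, adjusted p = 0.408) in diploid cataract lenses and 0.87 (adjusted p = 0.811) without the rod opsin-rich lenses, with adjusted p from 0.169 to 0.811 over 14 alternatives. Unigene2284, nearest to carbonic anhydrase II, had 31.5, 18.6 and 26.0 RPKM in the 3 rod opsin-rich lenses, against at most 3.23 RPKM elsewhere. It had enough reads in too few lenses to be tested. The carbonic anhydrase 14-like contig CL3803.Contig1, a membrane-bound form in mammals, stayed at or below 1 RPKM in all lenses, with no high value in those 3.

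In all, 7 of the 54 members had each of the 3 rod opsin-rich lenses above each of the other 23, which is 13% of them. Among the tested unigenes it was 4 of 38 members (10.5%) and 4.76% of all 19532, and on RPKM divided by the scaling factors it was the same 4 members and 1.8%. The 7 include the 4 alpha 3 contigs, of which the tested Unigene14878 and Unigene19645 share a hit. The 7 members may therefore stand for fewer genes. The seventh besides alpha 3 and carbonic anhydrase was the V-ATPase subunit B CL1562.Contig4, at 21.7, 19.0 and 17.0 RPKM against 3.48 to 12.8 RPKM. The retina marker list of 35 unigenes summed to 118.5 to 3804 RPKM in 2N+, 108.6 to 266.1 RPKM in 2N-, 128.6 to 596.5 RPKM in 3N+ and 107.7 to 2374 RPKM in 3N- lenses. The list includes a phosducin-like 3-2 unigene (CL2905.Contig1) at 28.8 to 46.2 RPKM in every lens, whereas rod opsin went down to 0.51 RPKM. The lowest sums of the list therefore do not show retinal RNA. Rod opsin was at 0 in no lens. Without these 3 lenses the Na/K-ATPase sum averaged 87.6 ± 67.7 RPKM in 2N+ (n = 4) and 103.1 ± 57.4 RPKM in 2N- lenses (n = 6), whereas with them the 2N+ mean was 160.2 ± 125.2 RPKM. The carbonic anhydrase sum averaged 3.86 ± 2.66 RPKM in 2N+ without them, 30.0 ± 43.5 RPKM with them, and 3.07 ± 2.94 RPKM in 2N- lenses. In 3N- lenses the Na/K-ATPase sum averaged 97.8 ± 95.6 RPKM with 3N- replicate 1 and 60.8 ± 33.9 RPKM without it (n = 5). In 3N+ lenses it averaged 85.2 ± 48.6 RPKM. The carbonic anhydrase sum of 3N- lenses averaged 16.8 ± 33.7 RPKM with that lens and 3.13 ± 4.17 RPKM without it, and that of 3N+ lenses 3.00 ± 2.04 RPKM. Leaving the 3 lenses out left 0 of the members called in each comparison.

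**Figure D4:**
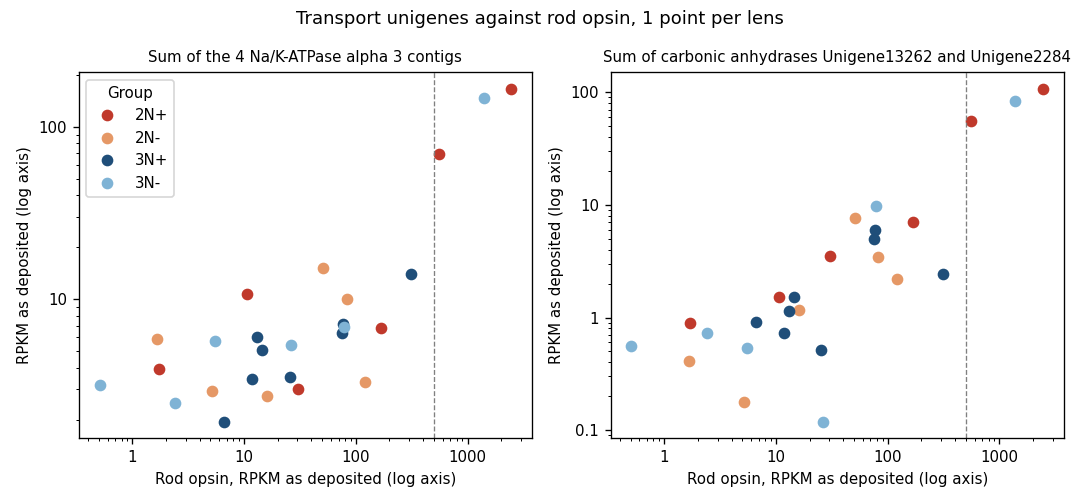
Summed RPKM of the 4 Na/K-ATPase alpha 3 contigs (left) and of carbonic anhydrases Unigene13262 and Unigene2284 (right) against rod opsin (both axes log), with 1 point per lens coloured by group and a dashed line at 500 RPKM. The 3 lenses beyond the line, 2 of 2N+ and 1 of 3N-, are the 3 highest in both panels.

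The last Na/K-ATPase entries, Unigene17653 and Unigene1435, matched an interacting protein of the beta-1 subunit and are not pump subunits themselves. They averaged 4.51 ± 1.56 and 2.45 ± 1.05 RPKM over all lenses. Their ranges overlapped between connexin 43-rich and poor lenses, and their diploid log2 changes were 0.01 and 0.21.

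Water channels named as such in the hits were rare. The 3 aquaporin unigenes, each nearest to aquaporin-4 of other fish by the hit, carry the KEGG names aquaporin-4 (Unigene15304), aquaporin-0 (Unigene10930) and aquaporin-2 (Unigene17613). They summed to 6.16 ± 1.53 RPKM in 2N+, 4.22 ± 0.86 RPKM in 2N-, 5.73 ± 1.55 RPKM in 3N+ and 8.08 ± 2.12 RPKM in 3N- lenses. Unigene10930 had 1.33, 2.69 and 3.13 RPKM (lowest, median, highest) in 3N- lenses, against 0.56, 0.95 and 2.67 RPKM in 2N- lenses. The ranges overlapped through 2N- replicate 2 alone, which had 2.67 RPKM where the other 2N- lenses had at most 1.07 RPKM. The log2 difference was 0.83 (0.20 to 1.46, adjusted p = 0.319). Unigene15304 and Unigene17613 averaged 2.49 and 1.72 RPKM over all lenses. The abundant contigs with the KEGG name of aquaporin-0, the main water channel of lens fibres, were not members because their hits carry no protein name. The longest, CL2684.Contig3 and CL2684.Contig1, were the 110th and 108th most abundant unigenes, at 1330 ± 136 and 1399 ± 206 RPKM. These 2 and CL2684.Contig2, the contigs with that KEGG name other than Unigene10930, together ran from 2329 to 3562 RPKM in 2N+, 2405 to 2992 RPKM in 2N-, 2245 to 3092 RPKM in 3N+ and 2812 to 3491 RPKM in 3N- lenses. CL2684.Contig1 had a log2 change of -0.26 (adjusted p = 0.531) in diploid and -0.29 (adjusted p = 0.569) in triploid cataract lenses.

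Among the potassium channels, which set the membrane voltage, a 2-pore leak channel named subfamily K member 2 (Unigene5975) had the highest mean over all 26 lenses. Unigene5975 had a lowest, median and highest level of 0.99, 7.45 and 17.6 RPKM in 2N+ lenses, and of 0.65, 5.77 and 9.13 RPKM in 2N- lenses. It had 1.32, 3.11 and 11.3 RPKM in 3N+ lenses, and 1.34, 4.65 and 10.6 RPKM in 3N- lenses. The groups overlapped, and the log2 changes were 0.31 (-1.004 to 1.62, adjusted p = 0.930) in diploid and -0.16 (-1.39 to 1.06, adjusted p = 0.979) in triploid cataract lenses. By connexin 43 it had 4.62, 8.78 and 17.6 RPKM in rich lenses, against 0.65, 1.39 and 4.10 RPKM in poor ones. In the poor lenses its median lay below those of other potassium channels, such as Unigene10500 at 3.55, Unigene613 at 2.66 and Unigene19768 at 2.52 RPKM, and in 3N- lenses it lay below that of Unigene10500. A second contig of the channel, Unigene5974, had medians of 3.53 RPKM in rich and 0.71 RPKM in poor lenses.

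The small conductance channels, which open on a rise in calcium, had no reads in some lenses. Unigene17213 had 0, 1.06 and 2.67 RPKM (lowest, median, highest) in 3N+ lenses, against 1.503, 2.47 and 6.03 RPKM in 3N- lenses, with 5 of 8 cataract lenses below every clear one (4 of 8 on scaled RPKM). The log2 change was -1.24 (-2.35 to -0.13, adjusted p = 0.477), the smallest p of a member in that comparison. Unigene10500 had 0, 2.46 and 6.39 RPKM in 3N+ lenses, against 3.35, 4.997 and 5.75 RPKM in 3N- lenses, and a log2 change of -1.18 (-2.44 to 0.09, adjusted p = 0.604). The 3N+ lenses with the least of both contigs were replicates 1, 4, 6 and 7, at 0 to 0.73 RPKM for Unigene17213 and 0 to 1.79 RPKM for Unigene10500, and they were also the 4 with the most keratin-18 (Unigene7304), a surface epithelium marker, at 100.5, 36.1, 171.7 and 37.9 RPKM against at most 11.01 RPKM in the other 3N+ lenses. In 2N+ replicate 5, at 76.1 RPKM of keratin-18, both contigs were at 0 too, and so they were in 2N- replicate 2, at 1.06 RPKM of keratin-18. At 4.03 RPKM of keratin-18, 2N- replicate 5 had 0 RPKM of Unigene17213 and 0.44 RPKM of Unigene10500. At 24.6 RPKM of keratin-18, 2N+ replicate 3 had 2.32 RPKM of Unigene17213 and 3.15 RPKM of Unigene10500. The 8 unigenes of the surface epithelium list include the KRT222-like Unigene8578, at 59.3 to 89.4 RPKM in every lens. The 8 unigenes summed to 79.4 to 334.9 RPKM in 2N+, 82.5 to 112.9 RPKM in 2N-, 84.6 to 716.2 RPKM in 3N+ and 75.7 to 109.3 RPKM in 3N- lenses, and their part in these levels was not tested. Both changes had the other sign in diploid lenses, at 0.66 and 0.26. The inward rectifiers, which pass potassium inward more easily than outward, were at 0 in no lens for the 3 tested contigs. Unigene19768, nearest to inward rectifier 2, averaged 2.64 ± 0.74 RPKM, and the 2 tested contigs of G protein-activated rectifier 3, Unigene613 and Unigene614, averaged 2.23 ± 0.74 and 2.08 ± 0.65 RPKM. The contigs of the ATP-sensitive rectifier 11, Unigene21431 and Unigene21187, averaged 1.36 and 1.19 RPKM and were not tested.

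The class of sodium channels rested on 2 short contigs. Unigene5822 (319 bases) was nearest to the alpha subunit of the type 4 channel, a voltage-gated channel of skeletal muscle in mammals. It had 2.82, 6.14 and 8.92 RPKM (lowest, median, highest) in 2N+ lenses, against 0, 2.41 and 4.55 RPKM in 2N- lenses. In 3N+ lenses it had 2.42, 6.13 and 9.76 RPKM, and in 3N- lenses 5.55, 6.09 and 8.06 RPKM. The diploid clear lenses were the low group: on RPKM as deposited all 6 3N- lenses lay above every 2N- lens, and 3 of 6 2N+ lenses did. Divided by the scaling factors, 5 of 6 3N- and 3 of 6 2N+ lenses did, with 3N- replicate 1 at 4.89 and 2N- replicate 4 at 5.32 RPKM. The share of all unigenes with every 3N- lens above every 2N- lens was not determined. Unigene5822 had a log2 change of 1.27 (0.32 to 2.22, adjusted p = 0.208) in diploid and -0.27 (-1.17 to 0.62, adjusted p = 0.942) in triploid cataract lenses. With body weight as a covariate the diploid value was 0.07 (adjusted p = 0.984). That fit cannot separate weight from cataract, because the diploid weights did not overlap. Over 13 alternatives the adjusted p ran from 0.0398 to 0.984. The 11 unigenes of the muscle and vessel marker list summed to 124.5 to 173.7 RPKM in 2N+, 67.6 to 126.4 RPKM in 2N-, 88.2 to 184.2 RPKM in 3N+ and 68.9 to 110.3 RPKM in 3N- lenses, and their part in this level was not tested. Unigene18795 matched sodium channel modifier 1, a splicing factor in mammals and not a channel, and averaged 4.89 ± 2.02 RPKM.

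The chloride channel names were also mixed. CL386.Contig1 averaged 8.16 ± 1.69 RPKM, but its hit is a protein of the parasite Toxoplasma while its KEGG name is a Shaker-related potassium channel, so its identity is uncertain. Unigene16597 matched CLC-3, a chloride/proton exchanger of endosomes in mammals, and averaged 2.60 ± 0.98 RPKM. Their diploid log2 changes were -0.09 and -0.06, with intervals of -0.50 to 0.31 and -0.55 to 0.43.

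The acid and base transporters of the plasma membrane were low as well. Sodium/hydrogen exchanger 8, which acts in endomembranes and apical membranes of mammalian cells, had the member contigs Unigene2038 and Unigene2037. They averaged 2.97 ± 1.297 and 2.42 ± 1.27 RPKM. Unigene2038 had 2.30, 3.30 and 6.08 RPKM (lowest, median, highest) in 2N+ lenses, against 1.14, 2.39 and 3.57 RPKM in 2N- lenses, and the ranges overlapped. Its log2 change was 0.39 (-0.19 to 0.97, adjusted p = 0.653). The sodium bicarbonate cotransporter contigs Unigene16698, CL1802.Contig1 and CL1802.Contig2, which carry the KEGG name of solute carrier family 4 member 7, summed to 7.60 ± 4.06 RPKM in 2N+, 6.46 ± 3.63 RPKM in 2N-, 6.73 ± 3.34 RPKM in 3N+ and 6.66 ± 3.96 RPKM in 3N- lenses. Unigene16698 had medians of 4.08 RPKM in connexin 43-rich and 1.70 RPKM in poor lenses, with overlapping ranges. CL1802.Contig1 had medians of 2.93 RPKM in rich and 0.41 RPKM in poor lenses, also overlapping.

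**Figure D5:**
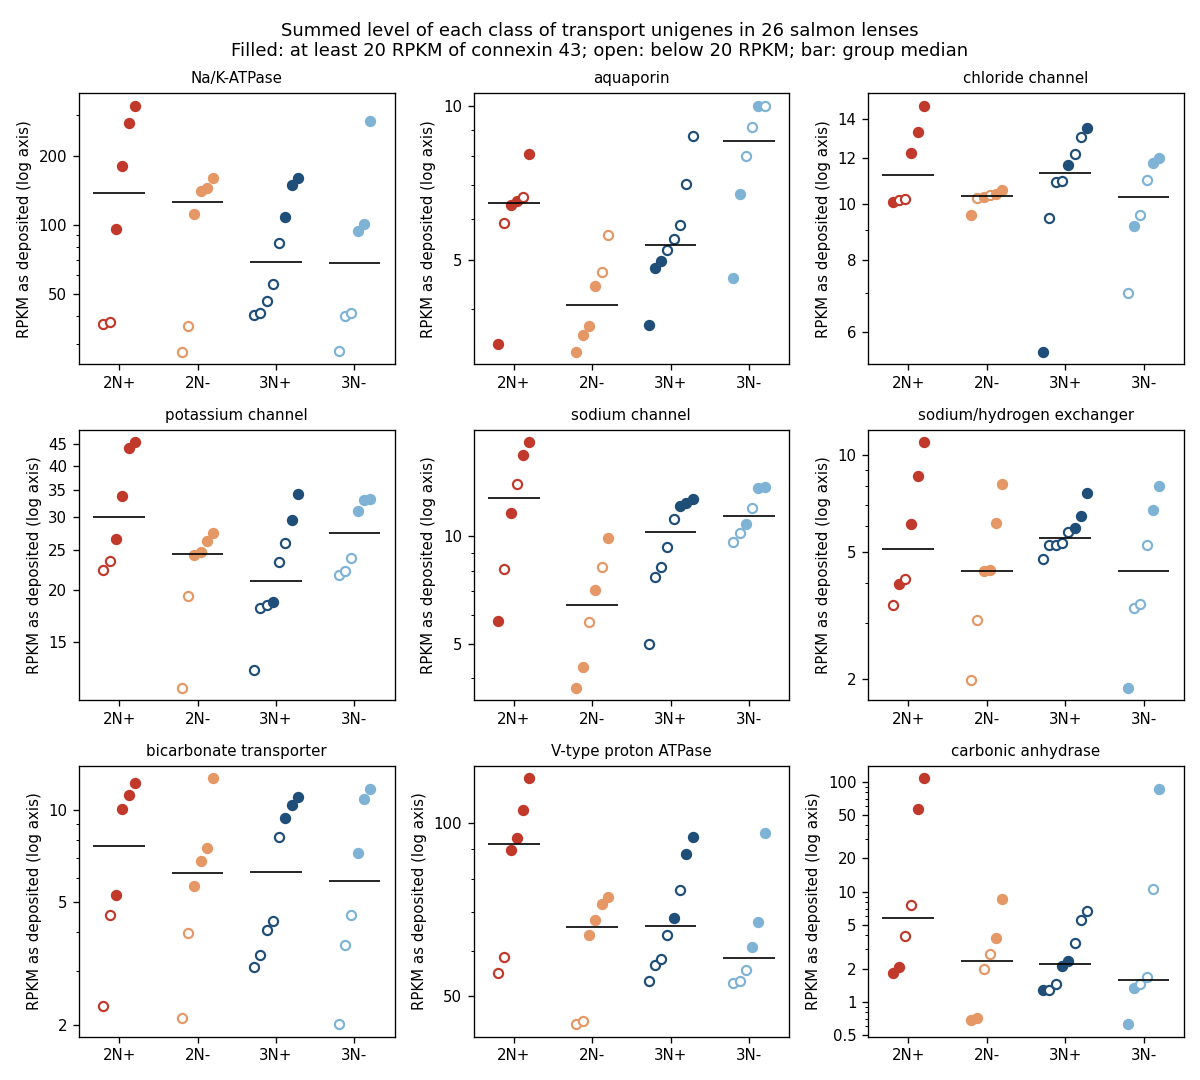
Summed RPKM as deposited (log axes) of the members of each of the 9 classes in 2N+, 2N-, 3N+ and 3N- lenses, with 1 point per lens, a bar at the group median and filled points for the 14 connexin 43-rich lenses. The groups overlap in every class, the Na/K-ATPase sum is split between filled and open points, and 3 lenses stand above the rest for carbonic anhydrase.

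The V-type proton ATPase pumps protons into lysosomes and endosomes. It consists of a cytoplasmic V1 part, which splits ATP, and a membrane Vo part, which carries the protons. Its 16 unigenes summed to 87.0 ± 25.7 RPKM in 2N+, 61.4 ± 13.2 RPKM in 2N-, 70.0 ± 15.3 RPKM in 3N+ and 64.3 ± 16.5 RPKM in 3N- lenses. Without the 3 rod opsin-rich lenses the sum was 74.2 ± 20.5 RPKM in 2N+ (n = 4) and 57.9 ± 6.20 RPKM in 3N- lenses (n = 5). Of the 13 tested, 9 had a positive and 4 a negative diploid log2 change, with a median of 0.17, and 0 were called.

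In the V1 part, subunit C (CL1397.Contig1) was the most abundant of these 16 unigenes at 12.5 ± 3.77 RPKM. It had 9.31, 16.6 and 21.1 RPKM (lowest, median, highest) in 2N+ lenses, against 7.59, 11.5 and 14.0 RPKM in 2N- lenses, and a log2 change of 0.13 (-0.12 to 0.38, adjusted p = 0.773). Subunit B (CL1562.Contig4) averaged 8.59 ± 4.51 RPKM and had a log2 change of 0.48 (-0.04 to 0.99, adjusted p = 0.462). The subunit G contig Unigene18144 was above 0 in only 1 lens, at 0.85 RPKM, and its hit is a bat protein.

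In the Vo part, subunit d had the smallest p of any member in the diploid comparison. Unigene9688 (374 bases, median 18.5 reads) had 4.19, 5.73 and 8.29 RPKM (lowest, median, highest) in 2N+ lenses, against 1.47, 2.37 and 4.18 RPKM in 2N- lenses. All 6 cataract lenses lay above all 6 clear ones, the nearest pair at 4.19 against 4.18 RPKM. The share of all unigenes with such a separation was not determined. On RPKM divided by the scaling factors the ranges overlapped: 5 of 6 cataract lenses lay above all clear ones, and 2N+ replicate 2, at 3.23 RPKM, lay below 2N- replicates 3 and 6, at 4.05 and 4.14 RPKM. The log2 change was 0.78 (0.34 to 1.22), with an adjusted p of 0.0662. In 3N+ lenses it had 2.29, 4.31 and 8.22 RPKM, against 3.18, 5.46 and 6.48 RPKM in 3N- lenses, with a log2 change of -0.19 (-0.60 to 0.22, adjusted p = 0.888). The other subunit d contig, Unigene5017, had 3.84, 5.68 and 8.99 RPKM in 2N+ lenses, against 1.46, 3.48 and 4.39 RPKM in 2N- lenses, and a log2 change of 0.55 (0.13 to 0.96, adjusted p = 0.210). The call for Unigene9688 was made on unscaled RPKM (log2 1.04, adjusted p = 0.0183) but not with body weight as a covariate (0.61, adjusted p = 0.515), and the adjusted p over 13 alternatives ran from 0.0135 to 0.515. Weight and cataract cannot be separated in the body weight fit. Leaving out 1 lens at a time gave adjusted p from 0.0465 to 0.175, with a call without 2N- replicate 3, 2N- replicate 6, 2N+ replicate 2 or 3N+ replicate 2.

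The accessory subunit S1, which guides assembly of the pump, had 3 contigs whose changes differed in sign. Unigene4450 (1303 bases) had 3.28, 4.58 and 6.75 RPKM (lowest, median, highest) in 2N+ lenses, against 4.02, 6.61 and 8.88 RPKM in 2N- lenses. It had 2.68, 4.28 and 8.11 RPKM in 3N+ lenses, against 4.02, 4.91 and 7.73 RPKM in 3N- lenses. The cataract lenses were lower at the median in both ploidies, with overlapping ranges. Divided by the scaling factors, Unigene4450 ran from 3.54 to 4.79 RPKM in 2N+ and from 5.205 to 8.05 RPKM in 2N- lenses, without overlap. How many of all unigenes lacked overlap in this way was not determined. Unigene4450 had a log2 change of -0.60 (-1.03 to -0.18, adjusted p = 0.161) in diploid lenses and -0.38 (-0.78 to 0.01, adjusted p = 0.578) in triploid lenses. Averaged over ploidies it was -0.49 (-0.78 to -0.21, adjusted p = 0.0559), and -0.22 (adjusted p = 0.637) with body weight as a covariate. Over 13 alternatives its average change ran from -0.62 to -0.22 and its adjusted p from 0.0315 to 0.637. It was called without 3N- replicate 6, 3N+ replicate 2 or 3N+ replicate 8, with adjusted p from 0.0150 to 0.110 over all lenses left out. CL1711.Contig1, the S1 contig with a mean of 7.33 ± 2.22 RPKM, had a log2 change of 0.09 (-0.23 to 0.42) in diploid and 0.33 (0.03 to 0.64, adjusted p = 0.499) in triploid lenses. Unigene10107, the third, averaged 3.34 ± 1.05 RPKM and had changes of -0.11 and 0.23.

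The large membrane subunit a, which anchors the pump, was spread over 7 contigs of isoforms 1 and 2. The 3 tested contigs of isoform 1 summed to 16.5 ± 6.72 RPKM in 2N+, 10.2 ± 2.26 RPKM in 2N-, 13.5 ± 5.88 RPKM in 3N+ and 11.4 ± 3.74 RPKM in 3N- lenses. The highest sums were 26.4 RPKM in 3N+ replicate 6 and 24.1 RPKM in 2N+ replicate 5, which are among the 3 lenses with the most keratin-18, followed by 23.2 RPKM in the rod opsin-rich 2N+ replicate 3. For each of the 3 contigs, 2 of its 3 highest lenses were among those 3 keratin-18-rich ones. The same held for the S1 contig Unigene10107, so it is not particular to subunit a. The share over all unigenes was not determined, and the part of these lenses in the level was not tested. The diploid log2 changes of the contigs were 0.25 for Unigene6065, 0.21 for Unigene1751 and 0.45 for Unigene4539, with adjusted p from 0.509 to 0.849. The isoform 2 contigs Unigene1952 and Unigene1953 averaged 2.58 and 2.17 RPKM and had log2 changes of -0.23 and -0.24. The proteolipid subunit of 21 kDa, Unigene10313, averaged 4.93 ± 1.57 RPKM and had a log2 change of 0.17 (-0.15 to 0.49).

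Between ploidies, 0 of 38 members were called in 3N- against 2N- lenses, against 0.0666% of all unigenes, and 3 had an unadjusted p below 0.05, against 10% of all unigenes. In 3N+ against 2N+ lenses 0 were called, against 0.0102%, and 1 had an unadjusted p below 0.05, against 8.02%. For ploidy averaged over cataract 0 were called, against 0.261%, and 2 had an unadjusted p below 0.05, against 11.9%. The smallest p between clear lenses was that of the sodium channel contig Unigene5822, at 1.77 (0.82 to 2.73, adjusted p = 0.142) in 3N- against 2N-. It was 0.82 (adjusted p = 0.859) with body weight as a covariate, and the adjusted p over 13 alternatives ran from 0.0877 to 0.859. Unigene9688 followed at 0.76 (0.32 to 1.203, adjusted p = 0.170), with 3N- lenses between 3.18 and 6.48 RPKM and 2N- lenses between 1.47 and 4.18 RPKM. Both differences use the same 2N- lenses as the diploid cataract comparison. Between cataract lenses the smallest p belonged to Unigene18795, with 2.14, 3.24 and 6.88 RPKM (lowest, median, highest) in 3N+ and 2.97, 6.73 and 9.76 RPKM in 2N+ lenses, and a log2 difference of -0.47 (-0.93 to -0.01, adjusted p = 0.612). A difference of the cataract change between ploidies was called for 0 of 38 members, against 0.00512% of all unigenes. The unadjusted p was below 0.05 for 4 members, against 6.14% of all unigenes, with Unigene9688 lowest at -0.97 (-1.58 to -0.37, adjusted p = 0.678). Voom called 0 members in each of these 4 comparisons. Of all unigenes it called 0.00512% in 3N- against 2N-, 0.00512% in 3N+ against 2N+, 0.261% for average ploidy and 0% for the difference of the cataract change.

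Transport genes outside these 9 names were described from a list of 67 unigenes, of which 54 were tested. In the 7 comparisons 0 of them were called, against 0.00512% to 2.68% of all unigenes. Unadjusted p below 0.05 was found for 9 of 54 in diploid, 3 in triploid and 6 in average cataract, against 12.5%, 8.94% and 14.5% of all unigenes. FXYD9a (Unigene7358), of a family of small proteins that tune the sodium pump, had 24.6 ± 8.98 RPKM in 2N+, 16.9 ± 3.39 RPKM in 2N-, 22.0 ± 7.10 RPKM in 3N+ and 15.9 ± 2.45 RPKM in 3N- lenses. FXYD9a had a log2 change of 0.18 (adjusted p = 0.751) in diploid and 0.37 (adjusted p = 0.442) in triploid cataract lenses. Chloride intracellular channel 4 (CL820.Contig1) had 38.2 ± 4.995 RPKM in 2N+ and 44.5 ± 3.73 RPKM in 2N- lenses, with a log2 change of -0.51 (-0.89 to -0.14, adjusted p = 0.196). The vacuolar proton pump subunit G 1 (Unigene7375), named differently from the V-type members, had 32.4 ± 7.20 RPKM in 2N+ and 22.6 ± 3.73 RPKM in 2N- lenses, with a log2 change of 0.21 (0.03 to 0.39, adjusted p = 0.304). The plasma membrane calcium pump 1 (Unigene125), which removes calcium from the cell, had 9.58 ± 3.58 RPKM in 2N+ and 6.11 ± 1.04 RPKM in 2N- lenses, with a log2 change of 0.27 (adjusted p = 0.409).

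Connexin 43-rich and poor lenses were compared for only some unigenes of that list, so the share of the list with a split was not determined. Unigene4650, a TRPM3 cation channel, ran from 2.23 to 10.8 RPKM in rich and from 0 to 1.71 RPKM in poor lenses, without overlap. Outside that list, Unigene5973, with the KEGG name of potassium channel subfamily K member 2, also had every rich lens above every poor one. On RPKM as deposited 4.26% of all unigenes tested had this complete separation. The taurine transporter Unigene17128, which imports an osmolyte together with sodium and chloride, had medians of 7.63 RPKM in rich and 0.54 RPKM in poor lenses, with overlapping ranges. The potassium/chloride cotransporter contig Unigene6265 also had a higher median in rich lenses, with overlapping ranges. Chloride intracellular channel 4 (CL820.Contig1) had a lower median in rich lenses, also with overlap. The connexin of fibre cells, alpha-3 (CL814.Contig1), had nearly equal medians of 60.3 RPKM in rich and 60.4 RPKM in poor lenses.

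A last set of 16 unigenes matched the names of the rule in the KEGG column but not in the protein hit, and was added after the files were read. The hits of Unigene13330, Unigene1431 and Unigene18706 do name ion exchangers, but in a wording that the rule did not cover. Of its 15 tested unigenes 1 fell in 2N+ against 2N- lenses, where 1.37% of all unigenes were called, and 2 fell on average over ploidies, where 2.68% were. CL1430.Contig4, with the KEGG name of chloride channel 7 but a hit to an ORF2-encoded protein, had 8.19 ± 1.79 RPKM in 2N+ and 11.1 ± 1.79 RPKM in 2N- lenses. Its log2 change was -0.71 (-1.01 to -0.40, adjusted p = 0.0148) in diploid lenses, with adjusted p from 0.00254 to 0.415 over 14 alternatives. Without 2N- replicate 2 it was not called (-0.61, adjusted p = 0.0540), and neither was it without the 3 rod opsin-rich lenses (-0.75, adjusted p = 0.0705). CL1430.Contig4 was also not called with body weight as a covariate (-0.46, adjusted p = 0.415) or on RPKM as deposited (-0.43, adjusted p = 0.0915). The body weight fit cannot separate weight from cataract in diploid lenses. Unigene6473, named for a nucleotide-sensitive chloride channel by KEGG and for the methylosome subunit pICln by its hit, averaged 24.1 RPKM. Its average log2 change was -0.36 (-0.53 to -0.19, adjusted p = 0.0156), with adjusted p from 0.0063 to 0.36 over 13 alternatives. Unigene6473 was not called with body weight as a covariate (-0.34, adjusted p = 0.119) or on RPKM as deposited (-0.19, adjusted p = 0.29). The call was also lost with the replicate block (adjusted p = 0.0562) and without the 3 rod opsin-rich lenses (adjusted p = 0.0805). Unigene7334 and Unigene5083 share the pICln hit and were not among the unigenes that fell. As deposited, Unigene7334 averaged 4.59 RPKM in 2N+, 4.69 RPKM in 2N-, 4.90 RPKM in 3N+ and 4.76 RPKM in 3N- lenses. Unigene5083 averaged 5.80 RPKM in 2N+, 3.76 RPKM in 2N-, 3.78 RPKM in 3N+ and 3.99 RPKM in 3N- lenses. Neither name of CL1430.Contig4 or of Unigene6473 establishes a channel. Unigene11179, a pump alpha subunit by its KEGG name, had 96.5, 39.96 and 92.6 RPKM in the rod opsin-rich lenses, 2N+ replicates 2 and 3 and 3N- replicate 1. The other lenses had at most 6.06 RPKM in 2N+, 5.35 RPKM in 2N-, 7.13 RPKM in 3N+ and 3.32 RPKM in 3N-.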

How the data were processed

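RNA from 26 Atlantic salmon lenses was sequenced as single-end reads of 50 bases, per the labels. The values used are RPKM, which the authors deposited for each unigene and lens. The assembler, aligner and counting tool were not given in the sources used here. Unigene lengths and whole reads were inferred together from the RPKM values. The length taken was the shortest of at least 200 bases that gave whole reads (within 0.01 reads). Such a length was found for 100% of unigenes, but the lengths were not checked against an independent source. Lengths and reads in this text are therefore inferred values. Library totals and scaling factors came from these reads. A unigene was tested with at least 10 reads at the median library size in at least 6 lenses and at least 15 reads in all. log2(RPKM / TMM factor + 0.5) was fitted in limma 3.58.1 (R 4.3.3; trend, robust) over the 4 groups, two-sided, with 7 contrasts, and Benjamini-Hochberg adjustment over 19532 unigenes. TMM factors were programmed (trims of 0.3 and 0.05) on the tested unigenes. Summaries used Python 3.11.15, numpy 2.4.6, pandas 2.3.3 and scipy 1.17.1. The procedure was tested on simulated data. Contigs of 1 gene can share reads, so their levels are not independent.

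Members, lists and thresholds were chosen with earlier results of these data known. Named members are those called in any contrast, the 3 most abundant of each class and the 3 with the smallest p in each contrast. Others named in the text were chosen after their values were seen. Alternatives covered scaling, pseudocount, filter, voom on recovered reads, body weight, connexin 43, a replicate block, the groups in the fit and each lens left out, and, added after the data were seen, connexin 43-rich or poor lenses alone and the 3 rod opsin-rich lenses left out. Names are those of the best protein hit. Genome positions and sequences are not used here.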

Additional observations from a re-analysis of the deposited data

Results flagged for a closer look

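The 28 named members were each examined in the 4 groups, and 8 of these combinations held a lens far from the others of its group. A rate of 1 in 20 groups would be 5.6 here, but the groups share lenses and the levels are skewed, so 5.6 does not measure chance. Of the 8, 4 were 3N- replicate 1, which is also a lens rich in rod opsin. In it carbonic anhydrase Unigene13262 had 58.5 RPKM, against 0 to 8.00 RPKM in the other 3N- lenses, and carbonic anhydrase Unigene2284 had 25.95 RPKM, against 0 to 1.73 RPKM. In the same lens the Na/K-ATPase alpha 3 contig Unigene14878 had 42.7 RPKM, against 0.81 to 3.01 RPKM, and V-ATPase subunit B CL1562.Contig4 had 17.01 RPKM, against 4.85 to 8.05 RPKM. In 2N- replicate 6, Unigene13262 had 4.43 RPKM, against 0.17 to 1.37 RPKM in the other 2N- lenses, and Unigene14878 had 5.78 RPKM, against 0.29 to 2.11 RPKM, at a rod opsin level of 51.3 RPKM. The aquaporin-4-like Unigene10930 stood out in 2N- replicate 2 at 2.67 RPKM, against 0.56 to 1.07 RPKM. The uncertain chloride channel CL386.Contig1 was low in 3N- replicate 5 at 4.895 RPKM, against 7.35 to 8.70 RPKM.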

How the results depend on the processing

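Among the counts of called members under the alternatives, 263 equalled the reported 0 and 14 did not. In 2N+ against 2N- lenses 3 members were called on RPKM as deposited (Unigene9688, Unigene5017 and Unigene5822; 6.73% of all unigenes) and 1 with connexin 43 as a covariate (Unigene9688; 4.15%). On average over ploidies 1 member (Unigene4450) was called with a filter of 50 reads (5.9% of all unigenes), with voom (2.79%) and with connexin 43 as a covariate (5.61%). Leaving out 1 lens gave 0 to 1 in these comparisons and 0 to 0 in the other 5. Replicate numbers were taken as no pairing: 18 of 36 same-numbered pairs had a correlation above 0.1 (-0.505 to 0.517), and 3 of 26 lenses were closest to their own number. With the replicate block 1 member was called in 2N+ against 2N- lenses (1.14% of all unigenes), 1 on average (1.87%) and 0 in each other comparison. Of the single results, 1266 kept direction and side of the threshold, 15 were called newly, 16 lost a call and 33 changed sign. Without the rod opsin-rich lenses the sign changed for Unigene14878 in 3N+ against 2N+ (0.012), Unigene5975 in 2N+ against 2N- (-0.17) and 3N+ against 3N- (0.0049), and Unigene13262 in 3N+ against 3N- (0.69). Unigene13262 also changed with a pseudocount of 0.1 (0.35), voom (0.52) and connexin 43-poor lenses alone (0.46), and Unigene5975 in 3N+ against 3N- with the block (0.10) and in poor lenses (0.19). In 2N+ against 2N- lenses alpha 1c CL1543.Contig1 changed sign on RPKM as deposited (0.26), with body weight (0.36) and in poor lenses (0.027), and Unigene6791 on RPKM as deposited (0.28), with body weight (0.28) and in rich lenses (0.11). Leaving out 1 lens gave -0.29 to 0.22 for CL1543.Contig1, -0.18 to 0.24 for Unigene6791 and -0.044 to 0.65 for Unigene5975 in 2N+ against 2N-, and -0.39 to 0.078 for Unigene5975 and -0.65 to 0.69 for Unigene13262 in 3N+ against 3N-. The cause was not tested. At a median of 14 reads, differences of the rare channels were not detectable below the widths of their intervals.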
